A study of Mus musculus with 24 samples.

Results

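Vaults are large barrel-shaped ribonucleoprotein particles of the cytoplasm, and the genes of their 4 murine components were followed here in RNA on the surface of blood cells and in the whole RNA of peripheral blood mononuclear cells, or PBMCs. The members were the vault RNA gene Vaultrc5 and the genes of the vault proteins, Mvp, Parp4 and Tep1. They were chosen by symbol, with transcripts summed by gene name on the surface and with the gene rows of the PBMC tables. All 4 were found among 35001 genes on the surface, where they had 14 transcripts, and among 55335 genes listed in PBMCs.

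Surface RNA was profiled with AMOUR, in which cells are fixed and held on lectin-coated beads. The method aims to keep cells intact while RNA exposed on the outer membrane is primed and copied in place by T7 RNA polymerase. The study states that AMOUR, like other methods, cannot exclude all contamination by RNA from inside the cell. It also reports imaging of a human vault RNA on the surface of cord blood cells. Levels called surface here are those read by this assay. The 15 libraries came from wild-type C57BL/6 mice, 3 for each cell type. B cells, T cells and natural killer (NK) cells were from spleen, and monocytes and the stem and progenitor fraction (HSPCs) from bone marrow, each enriched with an isolation kit. The T cells were taken with a kit for CD8 T cells, and the HSPC fraction is what remained after depletion of lineage-marked cells. The 9 PBMC libraries, also of wild-type mice, fell into treatments labelled ct, WT and Y with 3 libraries each. The labels do not explain these letters. The labels do not say which libraries came from separate animals, so that p-values measure only the spread between these libraries.

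The major vault protein, encoded by Mvp, forms the shell of the particle. Parp4 is the vault poly(ADP-ribose) polymerase, and Tep1, which also associates with telomerase, binds the vault RNA. Vault RNA is a short noncoding transcript of RNA polymerase III, the enzyme that also makes Y RNAs, 7SK RNA and the RNAs of RNase P and RNase MRP, and in most cells much of it lies outside vault particles.

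Surface levels are given in TPM, the share of a library that a transcript holds after correction for its length, scaled to a fixed total, which keeps no depth, so that the depth of these 15 libraries is unknown. The tables of the 5 cell types were normalised separately, so levels set across them are shares. Ribosomal RNA and 3 microRNA transcripts held between 57.5% and 91.0% of TPM outside monocytes and between 49.9% and 51.3% on monocytes. Protein-coding transcripts held 17.0% to 18.2% on monocytes and 0.644% to 2.96% elsewhere. Monocyte libraries were also sequenced on another platform, so that platform and cell type cannot be told apart. In such bulk samples fewer cells with an RNA and less of it per cell cannot be told apart either. A rescaled TPM, which leaves out the ribosomal and the 3 microRNA transcripts, is given beside the deposited one where it matters. The markers of B, T, NK and monocytic cells each summed highest on the libraries of their own label, but monocyte libraries also carried all 9 neutrophil markers at a sum of 1540 to 1584 TPM beside 2488 to 3003 TPM for monocyte markers. Markers of HSPCs summed to 13.2 to 21.5 TPM on HSPCs, to 11.8 to 18.5 TPM on NK cells and to 137 to 162 TPM on monocytes, so that this list did not single out the HSPC label. The part of these marker genes in the results was not tested.

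Vaultrc5 was abundant on every cell type, and the 3 vault protein mRNAs were scarce on all but monocytes. Vaultrc5 ranked between 56 and 177 among all genes in each of the 15 libraries. Outside monocytes, Mvp, Parp4 and Tep1 never exceeded 1.96 TPM in any library, with highest values of 1.81 TPM for Mvp, 1.78 TPM for Parp4 and 1.96 TPM for Tep1. The vault RNA stood above the sum of the 3 mRNAs by 47.2 to 921 times in TPM, and above Mvp alone by 200 to 3538 times. Both ratios reached their lowest values on monocytes.

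The 143-base Vaultrc5 gene lies on chromosome 18 at 36801866 to 36802008, on the plus strand of GRCm38 in the GENCODE M21 annotation, and overlaps no other gene. It has a single transcript, and none of its 113 31-base words occurs in a transcript of another gene of that annotation. On monocytes Vaultrc5 stood at 2781, 2744 and 3092 TPM. On B cells it stood at 841, 1463 and 1305 TPM, and on T cells at 532, 1006 and 787 TPM. On NK cells it stood at 484, 532 and 737 TPM, and on HSPCs at 245, 248 and 237 TPM. All 3 monocyte libraries were above the other 12, and all 3 HSPC libraries were below the other 12, whereas T cells overlapped both B cells and NK cells. The lowest B cell value (841 TPM) was above the highest NK value (737 TPM). How many other genes had B cells apart from NK cells in this way was not computed. A separation from the other 12 libraries was seen for 83.5% of tested genes above them in monocytes and for 7.54% below them in HSPCs. On the rescaled values all 4 members still lay above on monocytes, as did 72.6% of genes, while on HSPCs 0 members lay below, beside 1.24% of genes. On T cells Mvp and Tep1 then lay below the other 12 libraries, beside 36.3% of genes.

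**Figure D1:**
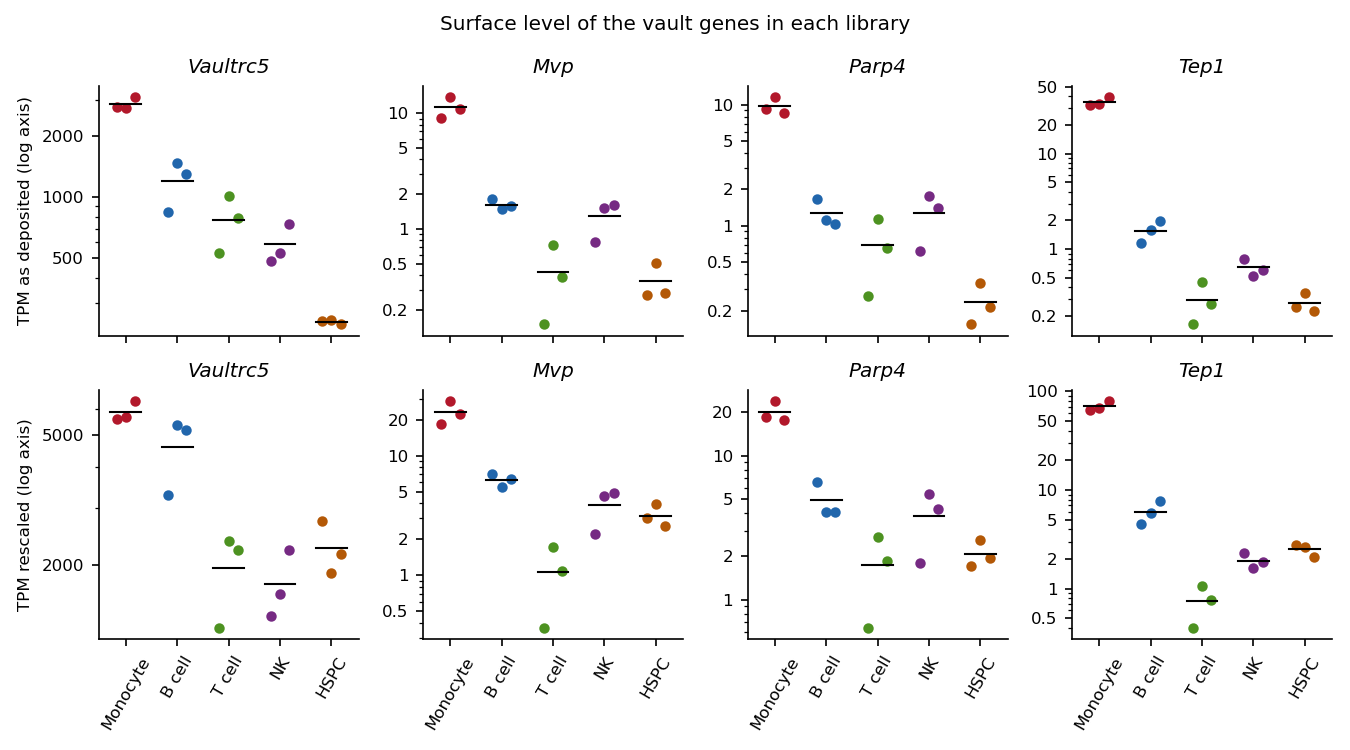
Surface level of Vaultrc5, Mvp, Parp4 and Tep1 in each of the 15 libraries, in TPM as deposited (upper row) and rescaled without ribosomal RNA and the 3 microRNA transcripts (lower row), on log axes. Points are libraries and bars are means of 3; the monocyte points lie above all others in each panel, and the HSPC points of Vaultrc5 are lowest only in the upper row.

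By group mean the order was monocytes (2872 ± 191 TPM, SD, n = 3), B cells (1203 ± 323), T cells (775 ± 237), NK cells (584 ± 134) and HSPCs (243 ± 6.00), a span of 11.8 times. Neighbours in this order were compared in the limma fit of log2(TPM + 1) over 13020 genes, with Benjamini-Hochberg adjustment. The log2 difference of B cells from monocytes was -1.29 (SE 0.28, limma adjusted p = 0.000444), in a comparison where 87.6% of genes were called lower on B cells. That of HSPCs from NK cells was -1.24 (SE 0.28, limma adjusted p = 0.00646), where 17% of genes were called lower. B cells and T cells differed by 0.64 (95% interval 0.05 to 1.23, limma adjusted p = 0.0891), and T cells and NK cells by 0.38 (-0.21 to 0.98, limma adjusted p = 0.271), neither of which passed the threshold of 0.05. B cells and NK cells, which are not neighbours, differed by 1.03 (0.43 to 1.62, limma adjusted p = 0.0183), where 7.12% of genes were called higher on B cells. That call ended without B cell replicate 2 (0.87, limma adjusted p = 0.0927), B cell replicate 3 (0.95, limma adjusted p = 0.0706) or NK replicate 2 (0.97, limma adjusted p = 0.0651).

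The rescaled values gave another order in the lower range. Rescaled Vaultrc5 was 5883 ± 408 on monocytes, 4607 ± 1156 on B cells, 2263 ± 424 on HSPCs, 1959 ± 589 on T cells and 1754 ± 428 on NK cells (SD, n = 3). B cells then exceeded T cells by 1.25 (limma adjusted p = 0.00184), as 56.1% of genes did, and NK cells by 1.39 (limma adjusted p = 0.00255), while monocytes and B cells no longer differed past the threshold (-0.38, 95% interval -0.99 to 0.22, limma adjusted p = 0.211). The difference between HSPCs and NK cells turned to 0.38 (limma adjusted p = 0.275), and after quantile normalisation to 0.83 (limma adjusted p = 0.0449). The call of B cells over T cells was also made after quantile normalisation (1.77, limma adjusted p = 0.000530), without B cell replicate 1 (0.88, limma adjusted p = 0.0281) and without T cell replicate 2 (0.85, limma adjusted p = 0.0372). The transcripts left out made up 86.9% to 91.0% of TPM on HSPCs. With TPM scaled to the protein-coding transcripts alone, which are then the whole of a library, the order changed again, with 71464 ± 9664 on T cells, 52339 ± 20112 on B cells, 26254 ± 5697 on NK cells, 16390 ± 677 on monocytes and 16291 ± 4575 on HSPCs (SD, n = 3), so that the high place of monocytes does not hold on that scale.

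Set against the average of the remaining types, Vaultrc5 was higher on monocytes (log2 fold change 2.27, limma adjusted p = 9.81e-08) and on B cells (0.66, limma adjusted p = 0.0178), and lower on HSPCs (-2.17, limma adjusted p = 2.80e-06) and NK cells (-0.62, limma adjusted p = 0.0330). On T cells it stood at -0.14 (limma adjusted p = 0.540), but was called lower there on the rescaled (-0.75, limma adjusted p = 0.00557) and the quantile-normalised values (-1.32, limma adjusted p = 0.000524). Unless stated otherwise, surface shares and medians of all genes cover the genes that passed the filter of 1 TPM in at least 3 libraries. The share of these called in the same direction was 89.2% for monocytes, 8.37% for B cells, 81.2% for HSPCs and 39.4% for NK cells. Without the filter, of 35001 genes, 18507 were called higher on monocytes and 1499 on B cells. On HSPCs 11490 were then called lower, and on NK cells 4496. The median log2 fold change of all genes was 2.20 on monocytes, -0.41 on B cells, -0.32 on NK cells, -0.66 on HSPCs and -0.83 on T cells. Relative to that median, Vaultrc5 stood at 0.08 on monocytes, 1.07 on B cells, 0.68 on T cells, -0.31 on NK cells and -1.50 on HSPCs. Without the filter the median was 0.32 on monocytes, -0.061 on B cells, -0.041 on NK cells, -0.12 on HSPCs and -0.10 on T cells. The distances therefore depended on the filter. These distances also depended on the pseudocount, which shrinks the folds of scarce genes but hardly that of Vaultrc5. With 0.1 TPM in place of 1 TPM the distance was -1.01 on monocytes and 1.33 on T cells, and with 10 TPM it was 1.57 and 0.07, while it ranged from 0.78 to 1.18 on B cells, from -0.50 to -0.31 on NK cells and from -1.92 to -1.11 on HSPCs. On B cells, 93.2% of tested genes had a smaller fold change than Vaultrc5 as deposited, 90.5% when rescaled and 92.9% after quantile normalisation. On monocytes the same shares were 52.8%, 22.7% and 97.7%, so that the place of Vaultrc5 among all genes there depended on the scaling. The same held on T cells, NK cells and HSPCs. On T cells its distance from the median was 0.76 when rescaled and turned to -1.27 after quantile normalisation. On NK cells it was -0.41 and -1.25, and on HSPCs -0.70 and -0.27. The call on B cells ended without B cell replicate 2 (0.50, limma adjusted p = 0.118) or replicate 3 (0.58, limma adjusted p = 0.0853), the call on HSPCs ended on the rescaled (-0.44, limma adjusted p = 0.114) and quantile-normalised values (-0.28, limma adjusted p = 0.350), and the call on NK cells ended without the monocyte libraries (-0.06, limma adjusted p = 0.877). The NK call also ended without B cell replicate 2 (-0.58, limma adjusted p = 0.0504), NK replicate 1 (-0.50, limma adjusted p = 0.164) or NK replicate 2 (-0.57, limma adjusted p = 0.110), with a pseudocount of 0.1 TPM (-0.62, limma adjusted p = 0.0603) and without a filter on low values (-0.62, limma adjusted p = 0.0595), and so in 6 of 23 alternatives.

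**Figure D2:**
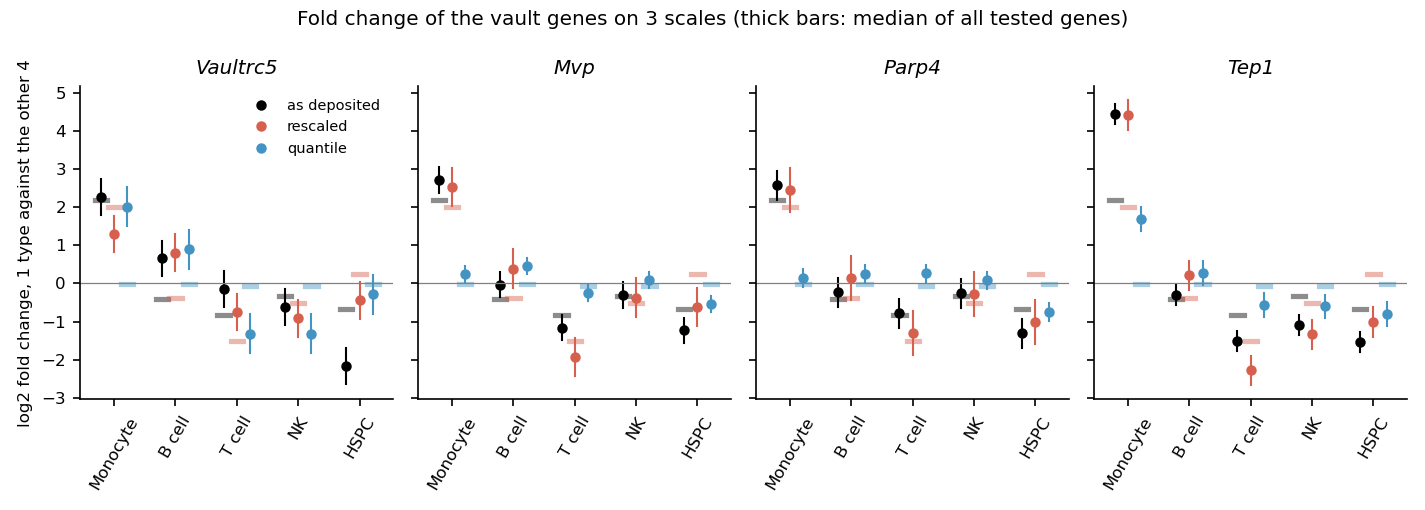
Log2 fold change of each member between 1 cell type and the average of the remaining types, with 95% intervals, from the deposited TPM, the rescaled TPM and quantile-normalised values; thick bars mark the median of all tested genes on the same scale. Tep1 on monocytes lies well above the median on all 3 scales, whereas Mvp and Parp4 lie 0.53 and 0.39 above it as deposited.

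Ratios within a library do not change when a library is rescaled, so Vaultrc5 was also set against the Y RNAs Rny1 and Rny3, which are bound by the Ro60 protein. Vaultrc5 exceeded Rny1 on B cells (1.40, 2.49 and 3.36 times) and on monocytes (1.30, 1.57 and 1.41 times). It was below Rny1 on T cells (0.820, 0.764 and 0.895), HSPCs (0.782, 0.532 and 0.588) and NK cells (0.377, 0.332 and 0.459). The ratio to Rny3 was 2.37 to 4.74 on B cells and 0.996 to 1.27 on monocytes, and lay between 0.307 and 0.872 on the other 3 types. The mean log2 ratio on B cells differed from that of the other types by 1.64 for Rny1 and 2.49 for Rny3, that on NK cells by -1.56 and -1.53, and that on monocytes by 0.79 and 0.39. The B cell libraries lay above the other 12 for Rny3 and overlapped monocytes for Rny1, and the NK libraries lay below the other 12 for both. These ratios were chosen after the values were seen and are given as a description, with no test.

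Of the TPM of all miscellaneous RNAs, the class that holds vault, Y and 7SK RNA, Vaultrc5 made up 12.9% ± 0.586 on monocytes (SD, n = 3). The share was 3.97% ± 0.595 on B cells, 2.81% ± 0.573 on HSPCs, 2.05% ± 0.409 on NK cells and 1.54% ± 0.514 on T cells. The 3 monocyte shares lay above those of the other 12 libraries, which is likewise a description. Of the 5 other RNA polymerase III RNAs, 3 were higher on monocytes in the limma fit and Rmrp, the RNA of RNase MRP, was lower (log2 fold change -0.98, limma adjusted p = 0.000294), beside 89.2% of all genes called higher and 4.35% called lower. On the rescaled values only the Y RNAs were called higher and the other 3 lower, beside 86.2% and 6.17% of genes. The ratio of Vaultrc5 to Rmrp was 17.2 to 20.6 on monocytes and 0.749 to 5.76 elsewhere. Rn7sk, the 7SK RNA that holds back transcription elongation, was above Vaultrc5 in every library (ratio of Vaultrc5 to Rn7sk 0.107 to 0.685).

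**Figure D3:**
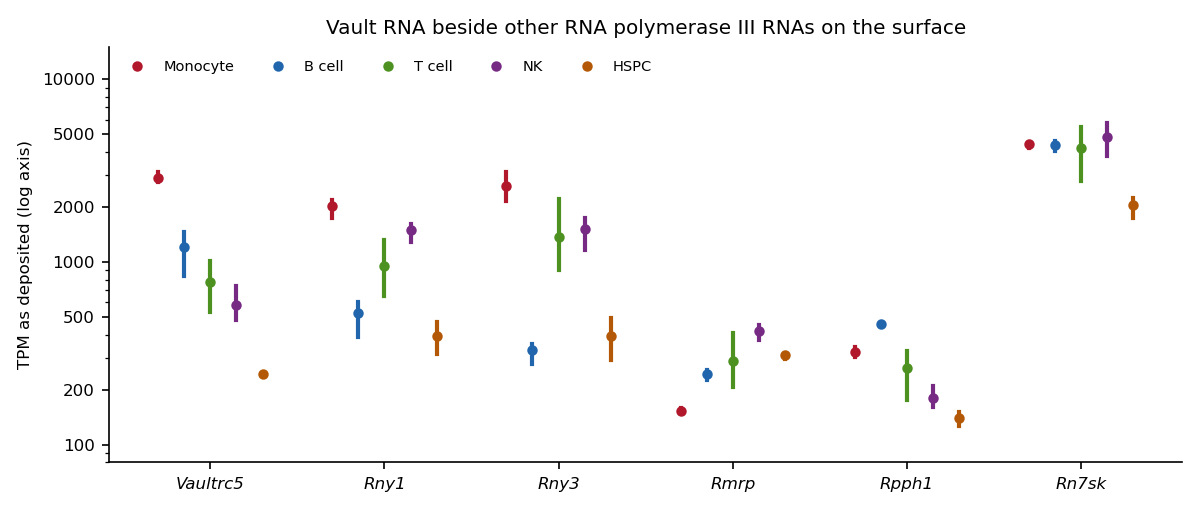
Surface TPM as deposited, on a log axis, of Vaultrc5 and 5 other RNA polymerase III RNAs in the 5 cell types; points are means of 3 libraries and lines run from the lowest to the highest library. Vaultrc5 spans 237 to 3092 TPM, and on B cells it lies above Rny1 and Rny3 whereas on NK cells it lies below both.

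Mvp, on the minus strand of chromosome 7 at 126986860 to 127014621, stood on monocytes at 9.15, 13.7 and 11.0 TPM. On B cells it stood at 1.81, 1.49 and 1.59 TPM, on NK cells at 0.768, 1.51 and 1.61 TPM, on T cells at 0.150, 0.732 and 0.389 TPM and on HSPCs at 0.271, 0.513 and 0.281 TPM. Parp4, on the plus strand of chromosome 14 at 56575619 to 56659794, stood on monocytes at 9.25, 11.5 and 8.62 TPM, and between 0.154 and 1.78 TPM in the other 12 libraries. Monocytes were above all other libraries for both genes, and B cells and NK cells overlapped. The log2 fold change on monocytes was 2.73 for Mvp (limma adjusted p = 3.00e-10) and 2.59 for Parp4 (limma adjusted p = 2.12e-09). The median was 2.20 over the tested genes and 0.32 without the filter. Both were lower on T cells (-1.16 and -0.79) and on HSPCs (-1.23 and -1.31), in comparisons where 83.3% and 81.2% of genes were called lower.

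On the protein-coding scale the monocyte levels of Mvp and Parp4 were no longer above all others, although both were still called against the remaining types (0.62, limma adjusted p = 0.0193, and 0.51, limma adjusted p = 0.0444), beside 36.9% of genes called higher. Mvp was 64.7 ± 15.3 on monocytes, 68.7 ± 9.54 on B cells, 55.5 ± 4.62 on NK cells, 34.6 ± 12.6 on T cells and 22.5 ± 4.82 on HSPCs (SD, n = 3). Parp4 was 56.2 ± 10.9 on monocytes, 57.2 ± 17.6 on T cells, 53.6 ± 15.7 on NK cells, 52.5 ± 5.22 on B cells and 14.7 ± 2.48 on HSPCs. The HSPC mean of both mRNAs was the lowest of the 5 on this scale, with log2 fold changes of -1.23 for Mvp (limma adjusted p = 0.000371) and -1.81 for Parp4 (limma adjusted p = 1.45e-05), where 27.4% of genes were called lower. The calls of Mvp, Parp4 and Tep1 as lower on HSPCs each held under all 23 alternatives tried. On the rescaled values these 3 of 4 members were lower there, beside 16.6% of genes. Parp4 on T cells turned to 0.51 on the protein-coding scale (limma adjusted p = 0.0525) and to 0.27 after quantile normalisation (limma adjusted p = 0.0517), and lost its call without the monocyte libraries (-0.15, limma adjusted p = 0.528). Mvp on T cells lost its call after quantile normalisation (-0.25, limma adjusted p = 0.0517), and Parp4 on monocytes lost its call after quantile normalisation (0.15, limma adjusted p = 0.237).

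Tep1, on the minus strand of chromosome 14 at 50824059 to 50870560, lay further above the median of all genes on monocytes than Mvp and Parp4. There it stood at 32.0, 32.9 and 38.8 TPM, and on B cells at 1.15, 1.58 and 1.96 TPM. On NK cells it stood at 0.796, 0.525 and 0.613 TPM, on T cells at 0.164, 0.456 and 0.270 TPM and on HSPCs at 0.247, 0.347 and 0.226 TPM. The monocyte mean was 22.1 times that of B cells as deposited, 11.8 times when rescaled and 2.88 times on the protein-coding scale. Its log2 fold change on monocytes was 4.45 (limma adjusted p = 2.21e-13), 2.25 above the median of all genes, and 97.6% of tested genes had a smaller fold change. On the rescaled values it was 2.41 above the median and after quantile normalisation 1.71 above it. With pseudocounts of 0.1 and 10 TPM it was 2.47 and 1.37 above. Tep1 was lower on T cells (-1.52), HSPCs (-1.55) and NK cells (-1.09), in comparisons where 83.3%, 81.2% and 39.4% of genes were called lower. The NK value turned to 0.03 without the monocyte libraries (limma adjusted p = 0.880). The NK call of Tep1 also ended on the protein-coding scale (-0.76, limma adjusted p = 0.0812).

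On B cells 1 of the 4 members was called higher (Vaultrc5) and 1 lower, Tep1 at -0.30 (limma adjusted p = 0.0461), while Mvp stood at -0.03 and Parp4 at -0.23. Mvp was called higher after quantile normalisation (0.46, limma adjusted p = 0.00181) and on the protein-coding scale (0.75, limma adjusted p = 0.00855). With a pseudocount of 10 TPM, Mvp (-0.12, limma adjusted p = 0.0373) and Parp4 (-0.15, limma adjusted p = 0.00972) were called lower. The call of Tep1 ended in 11 of the 15 fits that left out 1 library, where its value lay between -0.41 and -0.18 over all 15. With the monocyte libraries kept it turned to 0.21 on the rescaled values (limma adjusted p = 0.350), 0.28 after quantile normalisation (limma adjusted p = 0.129), 0.66 on the protein-coding scale (limma adjusted p = 0.0756) and 0.25 with a pseudocount of 0.1 TPM (limma adjusted p = 0.445), so that the call or its direction was lost in 17 of 23 alternatives. In that comparison 54.1% of genes were called lower. The average of the remaining types included monocytes. Without the monocyte libraries Vaultrc5 (1.31, limma adjusted p = 0.00208), Tep1 (0.87, limma adjusted p = 0.000223) and Mvp (0.69, limma adjusted p = 0.00628) were higher on B cells than on the other 3 types, and Parp4 stood at 0.45 (limma adjusted p = 0.0902). In that comparison 22.5% of genes were called higher.

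On monocytes 1 retained-intron transcript carried close to as much of Tep1 as the rest of the gene. This transcript, Tep1-208, stood at 16.3, 15.6 and 21.0 TPM, which was 50.8%, 47.5% and 54.2% of the TPM of Tep1. In the other 12 libraries it lay between 0 and 0.449 TPM and made up 0% to 24.5% of the gene. The transcript was singled out after its values were seen, so this separation is a description with no test, and the shares elsewhere rest on very low levels. Retained-intron transcripts of Tep1 together made up 50.4% to 58.6% of the gene on monocytes, 37.1% to 48.2% on T cells, 3.56% to 41.2% on HSPCs, 8.16% to 32.7% on NK cells and 14.7% to 26.6% on B cells. Retained-intron transcripts as a class held 9.26% to 10.1% of the TPM of coding and retained-intron transcripts on monocytes and 10.5% to 19.6% on the other types. The sequence of the first exon of Tep1-208 is shown because it holds the intronic bases that set this transcript apart from the coding one. It lies on the minus strand of GRCm38 at chr14:50829872-50830071. Capitals mark 123 bases that belong to a 181-base intron of Tep1-201, and lower case marks 77 bases of its exon 46 of 55. The transcript models are those of GENCODE M21, whose version of this transcript is earlier than the one in the deposited tables.
Tep1-208 first exon: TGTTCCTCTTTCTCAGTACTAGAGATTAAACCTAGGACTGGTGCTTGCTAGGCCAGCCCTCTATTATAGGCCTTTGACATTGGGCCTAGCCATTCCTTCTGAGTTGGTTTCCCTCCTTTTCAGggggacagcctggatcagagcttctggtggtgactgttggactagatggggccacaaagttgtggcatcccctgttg

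Of the 672 31-base words of Tep1-208, 120 occur in no other transcript of that annotation and 0 in another gene. The coding transcript Tep1-201 stood on monocytes at 8.03, 9.37 and 8.97 TPM. Tep1-202, also annotated as coding, stood at 3.67, 6.93 and 5.04 TPM, but it has 0 words of its own, so that its level depends on how reads were shared between transcripts. With the coding transcripts alone, Tep1 was 14.0 ± 2.30 TPM on monocytes and 1.13 ± 0.288 TPM on B cells (SD, n = 3). The antisense gene Gm26782 overlaps the start of Tep1, at 50870324 to 50880603, away from the exon shown. It stood at 25.6 ± 1.12 TPM on monocytes and at 1.68 ± 0.853 TPM on B cells, and 117 words of Tep1-201 occur in it. Since the strand setting of the quantification is not given in the sources used here, reads of the shared stretch cannot be told apart.

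For Mvp the full-length coding transcript Mvp-202 stood on monocytes at 8.10, 6.62 and 8.55 TPM, and Mvp-201 at 0, 5.92 and 1.29 TPM. Mvp-201 has 25 words of its own and shares 316 with Pagr1b, a gene that overlaps Mvp on the same strand, so that its level is uncertain. The retained-intron transcript Mvp-203 made up 8.81% to 11.4% of Mvp there. The coding transcript Parp4-201 stood at 9.25, 8.48 and 8.62 TPM there. The retained-intron transcript Parp4-202 was at 0 in monocyte replicates 1 and 3 and at 3.05 TPM in replicate 2, which was 26.5% of Parp4 in that library.

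**Figure D4:**
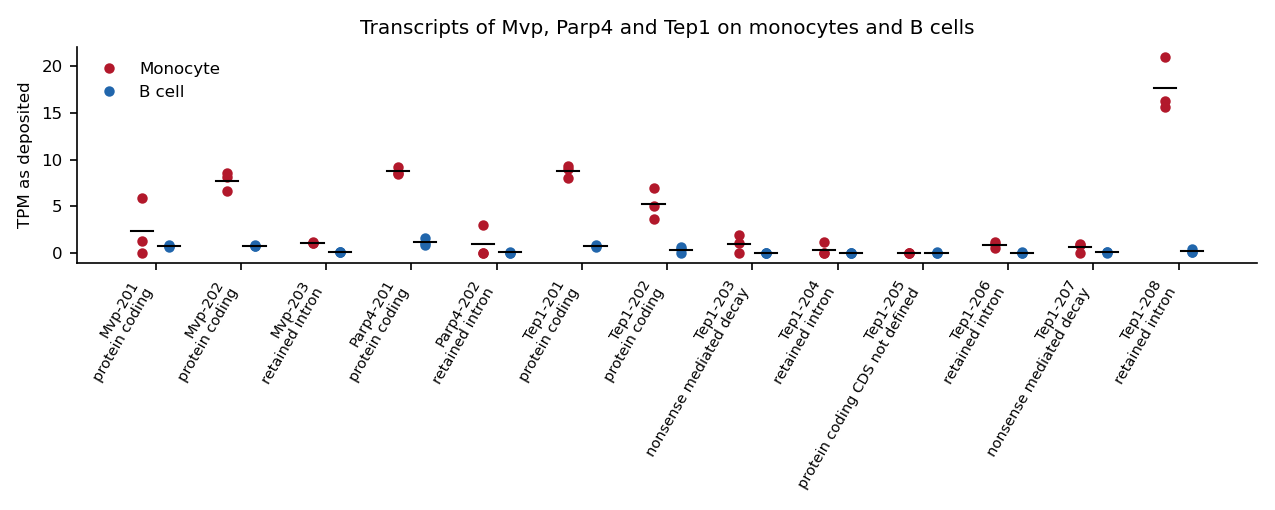
Deposited TPM of the 13 transcripts of Mvp, Parp4 and Tep1 on monocytes and B cells, with each transcript's annotated type under its name; points are libraries and bars are means of 3. Tep1-208, a retained-intron transcript, is highest among them on monocytes at 15.6 to 21.0 TPM, and B cell values reach 1.61 TPM at most.

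The genes with surface profiles most like that of Vaultrc5, among 1644 genes with a mean of at least 10 TPM, were Ndufs7, a subunit of respiratory complex I (Pearson's r of log2(TPM + 1) 0.98 over 15 libraries), and Coro1a, an actin-binding protein of leukocytes (0.98), followed by Arhgef1, Ppp1r18 and Limd2 (0.97 each). Over the 12 libraries without monocytes, Ndufs7 (0.97), Map4k2 (0.96) and Coro1a (0.95) led, followed by Gm24312 and n-R5s106 (0.95 each). The libraries of a cell type share tissue, kit and composition, so these values describe the profile only.

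Among 8 tested genes for binding and processing of vault RNA, all 8 were higher on monocytes, as were 89.2% of all tested genes. Their median log2 fold change was 2.34 beside 2.20 for all tested genes. Without the filter 18507 of 35001 genes were called higher there, and the median was 0.32. The 8 genes included Ssb, which encodes the La protein (3.15), Srsf2, a splicing factor (2.87), Dicer1, the small-RNA endonuclease (2.63), and Nsun2, an RNA cytosine methyltransferase (2.34). All 22 tested genes of the RNA polymerase III machinery were higher on monocytes too, with a median of 2.01, which was below that of all tested genes. All 14 tested PARP genes other than Parp4 were among the genes called higher (median 2.56), led by Parp8 (3.57) and Tiparp (3.51). A gene could pass the filter of 1 TPM in at least 3 libraries through the monocyte libraries alone. The counts and medians of these lists and of all tested genes on monocytes depend on that selection and are a description only. On HSPCs, 6 of 8 genes for binding and processing of vault RNA, 18 of 22 polymerase III genes and 14 of 14 PARP genes were lower, and 0 were higher. In that comparison 81.2% of all genes were called lower. On the rescaled values 4 of 8, 10 of 22 and 3 of 14 were instead higher on HSPCs, and 0, 0 and 3 lower, beside 31.7% of all genes called higher and 16.6% called lower. All 6 tested genes of the telomerase list were higher on HSPCs on the rescaled values (median 1.55 beside 0.25 for all genes), with Terc, the telomerase RNA, at 1.88 and Nhp2 at 1.86, whereas Tep1 was lower at -1.02 (limma adjusted p = 0.000457). On the deposited values 1 of these 6 genes was lower and 0 were higher.

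In whole RNA of PBMCs the vault RNA was again abundant and the 3 mRNAs were scarce, and no member was called between the groups in the main fit. The libraries held 4686426 to 9055797 expected counts, of which the ribosomal gene CT010467.1 took 50.5% to 57.0%. The ct libraries had 561, 343 and 877 counts of Vaultrc5, the WT libraries 661, 566 and 759 and the Y libraries 515, 682 and 731. In CPM, which are counts scaled to library size by the TMM factors of edgeR, this was 74.0 ± 27.1 in ct, 83.7 ± 20.5 in WT and 98.5 ± 12.3 in Y (SD, n = 3). The 3 groups overlapped, and ct spread most, from 51.4 to 104 CPM. The authors' TPM of Vaultrc5 was 429 to 695, while the 3 mRNAs lay between 0.45 and 1.13 TPM with 35 to 207 counts each. The effective length that RSEM used for Vaultrc5 was 31.5 to 46.2 of 143 bases, which raises its TPM. The ratio of Vaultrc5 to Mvp was 460 to 891 in TPM and 94.5 to 276 when counts were divided by full transcript lengths. PBMC and surface levels come from other assays and pipelines and were not compared.

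**Figure D5:**
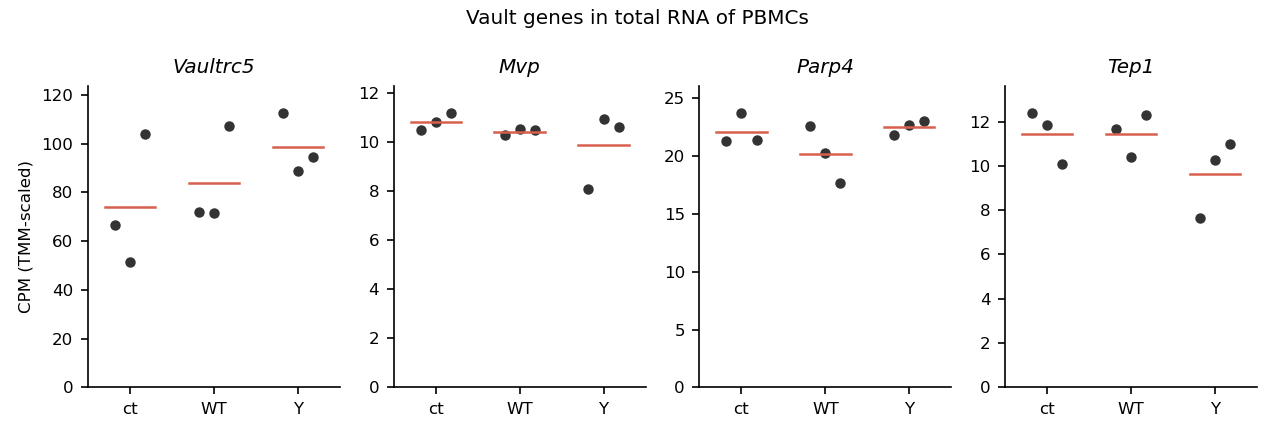
Level of the 4 members in PBMCs, in CPM after TMM normalisation, for the groups ct, WT and Y; points are libraries and lines are means of 3. The groups overlap for Vaultrc5, with ct between 51.4 and 104 CPM and Y between 88.8 and 112 CPM.

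By the quasi-likelihood test of edgeR over 11635 genes, Vaultrc5 in Y against ct had a log2 fold change of 0.40 (95% interval -0.02 to 0.83, edgeR adjusted p = 0.602). It was 0.17 in WT against ct (-0.25 to 0.59, edgeR adjusted p = 0.838) and 0.23 in Y against WT (-0.19 to 0.66, edgeR adjusted p = 0.727). The call of Vaultrc5 in Y against ct appeared without ct replicate 3, which had its highest ct level (0.74, edgeR adjusted p = 0.0348), and without a filter on low counts (0.38, edgeR adjusted p = 0.0348). In the main edgeR fit and in DESeq2, both of all 9 libraries with the filter, 0 of the 4 members were called in any comparison. In that main edgeR fit 0 had an unadjusted p under 0.05. Among all genes 0.705% were called in Y against ct, 2.36% in WT against ct and 1.25% in Y against WT.

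Counts of Mvp were 88, 72 and 94 for ct, 94, 82.9 and 74 for WT and 37, 84 and 82 for Y. Those of Parp4 were 179, 158 and 180 for ct, 207, 160 and 125 for WT and 100, 174 and 178 for Y. Those of Tep1 were 104, 79 and 84.7 for ct, 107, 82 and 86.7 for WT and 35, 79 and 85 for Y. The lowest counts of Mvp, Parp4 and Tep1 were found in Y replicate 1, which was also the smallest library. The 9 log2 fold changes of these genes lay between -0.21 and 0.15, with edgeR adjusted p between 0.611 and 1.00, and the interval of Tep1 in Y against WT ran from -0.51 to 0.08.

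Of the other lists in PBMCs, 1 of 8 genes listed for binding and processing of vault RNA was called. Ro60 was lower in WT against ct (-0.83, edgeR adjusted p = 0.00760) and was higher in Y against WT (0.97, edgeR adjusted p = 0.00416). Of all tested genes, 2.36% and 1.25% were called in either direction in these comparisons. Its counts were 121, 99 and 94 for ct, 67, 62 and 52 for WT and 50, 113 and 135 for Y. In CPM Ro60 stood at 7.31 to 7.85 in WT and at 10.9 to 17.4 in ct and Y. How many other genes had WT apart in this way was not computed. Markers of other cells also differed between the groups, and their part in these values was not tested. The 9 neutrophil markers summed to 306 to 316 CPM in Y, 132 to 162 in ct and 113 to 148 in WT, and the 7 erythroid markers to 4875 to 4901, 6654 to 8090 and 3871 to 5023. The Y RNAs Rny1 and Rny3 and the other 3 RNA polymerase III RNAs, the 23 polymerase III genes, the 15 other PARP genes and the 6 tested telomerase genes had 0 calls in each comparison. The PBMC profiles most like Vaultrc5 over the 9 libraries were those of Rnu12 (Pearson's r of log2 CPM 0.97), Rpl23 (0.96) and Gm22988 (0.96). Those most like Mvp were Paox (0.98), Tmem256 (0.97) and Dhodh (0.96), those most like Parp4 were Abhd2 (0.95), Wdr45b (0.94) and Gm15747 (0.94), and those most like Tep1 were Kcnq5, Gm10840 and Inpp5b (0.95 each).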

How the data were processed

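Surface RNA of 5 cell types (3 libraries each) and whole RNA of 9 PBMC libraries were analysed. For the surface, the authors deposited TPM per transcript from Kallisto, after trimming and barcode-based removal of duplicates as the study describes for AMOUR. The murine transcript set is not given in the sources used here. For PBMCs, the authors deposited expected counts, TPM and effective lengths per gene from RSEM. The submitters' processing notes name mm10 and hg38 without saying which step used them.

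TPM were summed by gene name over the 102001 transcripts present in all 5 tables. Genes above 1 TPM in at least 3 of 15 libraries were tested on log2(TPM + 1) with limma 3.58.1 in R 4.3.3, with a mean-variance trend and a term for cell type. Fold changes are on that scale, which understates the change of scarce genes. Intervals are at 95%. The study's DESeq2 test of AMOUR counts cannot be run on TPM. PBMC expected counts were rounded and tested with edgeR 4.0.16 (TMM, filterByExpr, quasi-likelihood). DESeq2 1.42.0 was an alternative. Calls needed a Benjamini-Hochberg adjusted p below 0.05. The fits were tested on simulated data.

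Surface identifiers carry later versions than GENCODE M21. Vaultrc5 has different identifiers on the surface and in PBMCs and was joined by symbol.

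Same-numbered T cell and NK libraries deviated together from their group means (r 0.21 to 0.47 across genes, from the data and not from the labels), so a fit of these 6 libraries with the replicate number was added after seeing the data.

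The ratios and shares were chosen after the values were seen and are given without a test. Members, gene lists and tests were chosen with earlier results of these data known. Named were the 4 members with their transcripts, up to 4 called genes per list and comparison with the largest fold changes, and the 5 surface and 3 PBMC genes with the most similar profile. Alternatives were other pseudocounts, filters, scalings, tools, a replicate block and leaving out libraries.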

Additional observations from a re-analysis of the deposited data

How the results depend on the processing

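Of 1324 values recomputed for 72 results, 1204 kept their direction and their side of the threshold. Values below are log2 fold changes and, unless another pair is named, set 1 type against the rest, and where a result changed, the cause was not tested. A pseudocount of 0.1 TPM gave Mvp 0.38, Parp4 0.049 and Tep1 0.25 on B cells and Vaultrc5 -0.62 on NK cells, and one of 10 TPM made calls of Mvp (-0.12) and Parp4 (-0.15) on B cells and of Mvp (-0.18) and Parp4 (-0.15) on NK cells. Without a filter the calls of Tep1 on B cells (-0.30) and Vaultrc5 on NK cells (-0.62) ended. The rescaled values gave Mvp 0.39, Parp4 0.14 and Tep1 0.21 on B cells, and Vaultrc5 -0.75 on T cells, where a call was gained, and -0.44 on HSPCs, where it was lost. They turned T cells against HSPCs to -1.06 for Mvp, -0.24 for Parp4, -1.01 for Tep1 and -0.24 for Vaultrc5, and HSPCs against NK cells to 0.26 for Tep1 and 0.38 for Vaultrc5. Quantile normalisation gave Mvp 0.46 (call gained), Parp4 0.25 and Tep1 0.28 (call ended) on B cells. On T cells it gave Mvp -0.25 and Parp4 0.27, where both calls ended, and Vaultrc5 -1.32, where a call was gained. It ended the calls of Vaultrc5 on HSPCs (-0.28) and Parp4 on monocytes (0.15), and gave Mvp 0.081 and Parp4 0.079 on NK cells. It turned Parp4 in B against T cells (-0.010), T against NK cells (0.15) and T cells against monocytes (0.093), Mvp (0.17) and Parp4 (0.083) in B cells against monocytes, Tep1 in T against NK cells (0.031) and Vaultrc5 in T cells against HSPCs (-0.83) and HSPCs against NK cells (0.83). On the protein-coding scale, Mvp was 0.75 (call gained), Parp4 0.40 and Tep1 0.66 (call ended) on B cells and Parp4 0.51 (call ended) on T cells. On NK cells Mvp was then 0.38, Parp4 0.40 and Tep1 -0.76 (call ended). Without the monocyte libraries, Mvp was 0.69, Parp4 0.45 and Tep1 0.87 on B cells, Parp4 -0.15 (call ended) and Vaultrc5 0.45 on T cells, and Mvp 0.41, Parp4 0.41, Tep1 0.028 and Vaultrc5 -0.058 on NK cells. Under a filter at 50 TPM Vaultrc5 was the only member tested.

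Leaving out 1 library at a time gave 0.50 to 0.90 for Vaultrc5 on B cells, -0.80 to -0.50 on NK cells and -0.36 to 0.10 on T cells. The NK call of Vaultrc5 ended without B cell replicate 2, NK replicate 1 or NK replicate 2. On B cells Tep1 ranged from -0.41 to -0.18 and lost its call in 11 of these fits, and Mvp ranged from -0.080 to 0.0063.
The ranges of the pair differences that turned sign were -0.20 to 0.19 for Parp4 in B against NK cells, -0.095 to 0.20 for Mvp and -0.066 to 0.095 for Tep1 in T cells against HSPCs. In PBMCs they were -0.037 to 0.50 for Vaultrc5 and -0.074 to 0.080 for Tep1 in WT against ct, -0.12 to 0.049 for Mvp in Y against WT and 0.20 to 0.74 for Vaultrc5 in Y against ct, which was called without ct replicate 3. Without a filter on low counts Vaultrc5 in Y against ct was called too (0.38), and the calls over all genes went from 89 higher and 186 lower to 238 and 246 in WT against ct, from 31 and 51 to 133 and 124 in Y against ct, and from 51 and 95 to 132 and 234 in Y against WT. DESeq2 made 50 and 120, 28 and 36, and 35 and 60 such calls. Another 32 values of pairs of cell types gained or lost a call without a change of direction.

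Deviations of T cell and NK libraries of the same number correlated at 0.47, 0.21 and 0.32 across genes. No other 2 surface types had all 3 values above 0.1, and PBMC values lay at -0.061 to 0.059. Libraries of unlike numbers reached 0.16 between T cells and NK cells and 0.27 between any 2 surface types. The last value is above 0.21, so these correlations do not establish that the libraries were paired. A fit of these 6 libraries alone, added after seeing the data, gave T against NK cells with the replicate block at 0.38 for Vaultrc5 (limma adjusted p = 0.205), -0.69 for Mvp (0.0215), -0.42 for Parp4 (0.0593) and -0.35 for Tep1 (0.0868), so that of the members Mvp was called, as in the fit of 15 libraries. Over all genes the block gave 465 higher and 6256 lower calls there, beside 283 and 2150 in the same 6 libraries without it, where Mvp lost its call (0.0934), and 338 and 4614 in all 15. In the fit of all libraries with the replicate block, Vaultrc5 on B cells kept its value of 0.66, Vaultrc5 in Y against ct was 0.46, and no call of a member against the rest or in PBMCs changed. Over all genes that block gave 1143 higher and 7202 lower calls on B cells, beside 1090 and 7045 without it.

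Depth limits the vault mRNAs in PBMCs, where 35 to 207 counts stood behind each value, and it is unknown on the surface, where levels under 2 TPM rest on an unknown number of reads.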
